A study of Mus musculus with 36 samples.

Results

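Molecular chaperones and their helpers were followed across muscle stem cells (MuSCs, also called satellite cells) sorted from the muscles of individual mice. The members were chosen by symbol: heat shock proteins, heat shock factors, J-domain proteins of the Dnaja, Dnajb and Dnajc families, subunits of the CCT chaperonin, and BAG cochaperones. The rule picked 77 of the 11337 genes in the table, under 76 symbols, because Hspa14 has 2 overlapping gene models whose reads could be split between them. A symbol rule also takes in genes that are not chaperones, such as Hspg2, which encodes the basement membrane proteoglycan perlecan. The CCT subunits measured were Tcp1 (CCT1), Cct2, Cct3, Cct4, Cct5, Cct7 and Cct8, and the heat shock factors were Hsf1 and Hsf4.

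The study held 36 libraries in 8 groups, each library from 1 mouse. In the wheel cohort, male C57BL6 mice (C56BL/6 in the strain label) of 3 or 18 months were housed for 3 weeks with a running wheel, locked in some cages and turning freely in others, and MuSCs were sorted as CD31-, CD45-, Sca1- and VCAM+. This gave 6 young locked, 3 young free, 7 old locked and 5 old free libraries. In the Ccnd1 cohort, mice carried the Pax7_CreERT2 driver, which is active in satellite cells, and the R26R_YFP reporter. They also carried 2 normal Ccnd1 alleles (WT), 1 floxed allele (HET) or 2 floxed alleles (KO). All of these mice, the WT controls included, received tamoxifen, and YFP+ cells were sorted 6 weeks later. There were 5 KO, 4 HET and 3 WT libraries of young mice (3 months), and 3 WT libraries of old mice (18 months). Values are RPKM, a read count scaled to exon length and library size, which allows levels to be compared between genes. They had been adjusted by the authors: the 36 libraries spanned 29 of 35 possible directions, and young WT differed from young locked, and old WT from old locked, for 0 genes at p under 0.05, where 567 are expected by chance. The age comparisons of the 2 cohorts are therefore not independent measurements. The p-values and standard errors below take no account of this adjustment and may be too small. Pax7, Itga7 and the other satellite cell markers listed were detected in every group, at a summed 3023 to 4972 RPKM per library. Ccnd1 itself averaged 11.7 RPKM in WT, 7.18 in HET and 2.71 in KO.

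Chaperones bind unfolded or partly folded proteins and help them fold or keep them from clumping, many of them with the use of ATP. HSP70 proteins do this with J-domain partners, which deliver clients and trigger ATP hydrolysis, and with nucleotide exchange factors such as the BAG proteins and HSP110. HSP90 finishes the folding of signalling proteins, and the CCT ring folds actin and tubulin. When unfolded protein accumulates in the cytosol, heat shock factor 1 switches on the stress-inducible members through heat shock elements in their promoters; the endoplasmic reticulum (ER) has its own programme, the unfolded protein response, which acts through ER stress elements. Both programmes are known to respond to the handling of tissue as well as to conditions in the animal.

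Some members carry the letters of these elements before their start, and the stretches are shown to put letters beside the heat shock and ER genes described below. Dnajb1 and Bag3 held no match to either form of the heat shock element in their windows, and Dnajb9 none to the ER stress element. RefSeq promoter windows (GRCm38.p6) matched 62 of the 77 members, and the 250 bases before each start were searched on both strands. Hspa8, Hsp90aa1, Hsp90ab1, Hspa9 and Hsf1 were among the members without a window. The heat shock element of 3 units was searched as GAANNTTCNNGAA or TTCNNGAANNTTC. It was found in 153 of all 32851 windows (0.47%), and in 3 members: Hspd1, Hspe1 and Dnajb6. The 2-unit form, GAANNTTC or TTCNNGAA, which lies inside the 3-unit form, was in 12.8% of all windows and in 15 members. Capitals mark the motif in each stretch below, read 5′ to 3′ along the gene's strand. Hspa1a (chr17:34972238-34972275, minus strand) and Hspa1b (chr17:34959320-34959357, minus strand) carry the same stretch, and Hsph1 lies at chr5:149636351-149636380 on the minus strand. Hspd1 and Hspe1 share 1 stretch between them, chr1:55088053-55088082, read on the minus and the plus strand.
Hspa1a: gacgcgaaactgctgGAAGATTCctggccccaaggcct
Hspa1b: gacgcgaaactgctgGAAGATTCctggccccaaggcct
Hsph1: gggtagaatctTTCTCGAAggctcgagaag
Hspd1: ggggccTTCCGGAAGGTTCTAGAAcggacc
Hspe1: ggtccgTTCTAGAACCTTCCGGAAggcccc
The ER stress element, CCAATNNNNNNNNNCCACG, was in 0.113% of all windows (37 windows) and in 3 members, each a chaperone of the ER: Hspa5 (chr2:34772020-34772048, plus strand), Hsp90b1 (chr10:86705623-86705671, minus strand) and Dnajc3 (chr14:118937812-118937860, plus strand). It starts with the CCAAT box, which alone was in 33.8% of all windows and in 24 members.
Hspa5: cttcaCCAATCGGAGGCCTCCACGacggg
Hsp90b1: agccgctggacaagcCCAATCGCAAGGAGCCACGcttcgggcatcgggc
Dnajc3: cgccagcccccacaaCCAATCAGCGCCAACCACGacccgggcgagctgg
A match is a description of the letters in the window and not a site shown to be used.

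Chaperones were among the most abundant transcripts of these cells. Hspa5 (BiP, the HSP70 of the ER; chr2:34771970-34777547, plus strand, GENCODE M21 on mm10) averaged 2367 RPKM over all libraries and ranked 9 of 11337 genes. Hspa8 (Hsc70, the constitutive cytosolic HSP70) averaged 1725 RPKM and ranked 12, and Hsp90ab1, the constitutive HSP90, averaged 1233 RPKM and ranked 23. Stress-inducible members were also high: Dnajb1 averaged 969 RPKM, Hspa1b 941, Bag3 779 and Hspa1a 641, all within the top 61 genes. In all, 18 members averaged over 100 RPKM and 2, Hsf4 and Dnajb13, averaged under 1. Hspa1a (chr17:34969190-34972156) and Hspa1b (chr17:34956436-34959238), neighbours on the minus strand, encode nearly the same inducible HSP70. Of the 101-base words of their transcripts, the length of 1 read, 46.9% of those in Hspa1a and 49.7% of those in Hspa1b occur in the other gene. Their separate values are thus uncertain, and they count as 1 source of evidence rather than 2.

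Age was tested first in the mice with a locked wheel, 7 old against 6 young. Inducible HSP70 (Hspa1a, Hspa1b), its HSP40 partner Dnajb1, the HSP110 gene Hsph1 and the ER chaperones Hspa5, Hspa13 and Dnajb9 were lower in old MuSCs. Of the CCT subunits 5 of 7, all 5 mitochondrial J-domain members and Bag5 were higher. By limma's test with Benjamini-Hochberg adjustment over all genes (adjusted p under 0.05), 19 members were higher, beside 20.5% of all genes, and 16 were lower, beside 17.8% of all genes (38.3% in either direction). The shares among the 77 members were 24.7% and 20.8%, so the number called was near the background. Calls went one way in the HSP70 and HSP110 group (0 higher, 8 lower of 14), the CCT subunits (5 higher, 0 lower of 7) and the mitochondrial J-domain genes (5 higher, 0 lower of 5). They went both ways among the ER J-domain genes (1 higher, 1 lower of 6), the other J-domain genes (5 higher, 4 lower of 24) and the BAG genes (2 higher, 1 lower of 6), and no test compared the families. The 8 lower HSP70 and HSP110 members include Hspa1a and Hspa1b, and both overlapping models of Hspa14, so they are not 8 separate sources of evidence. The median log2 difference, old minus young, was 0.06 over the members and 0.01 over all genes. In 10 members, 13%, the 2 groups did not overlap, beside 12.4% of all genes. In bulk samples, fewer cells of a type and less RNA per cell cannot be told apart.

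**Figure D1:**
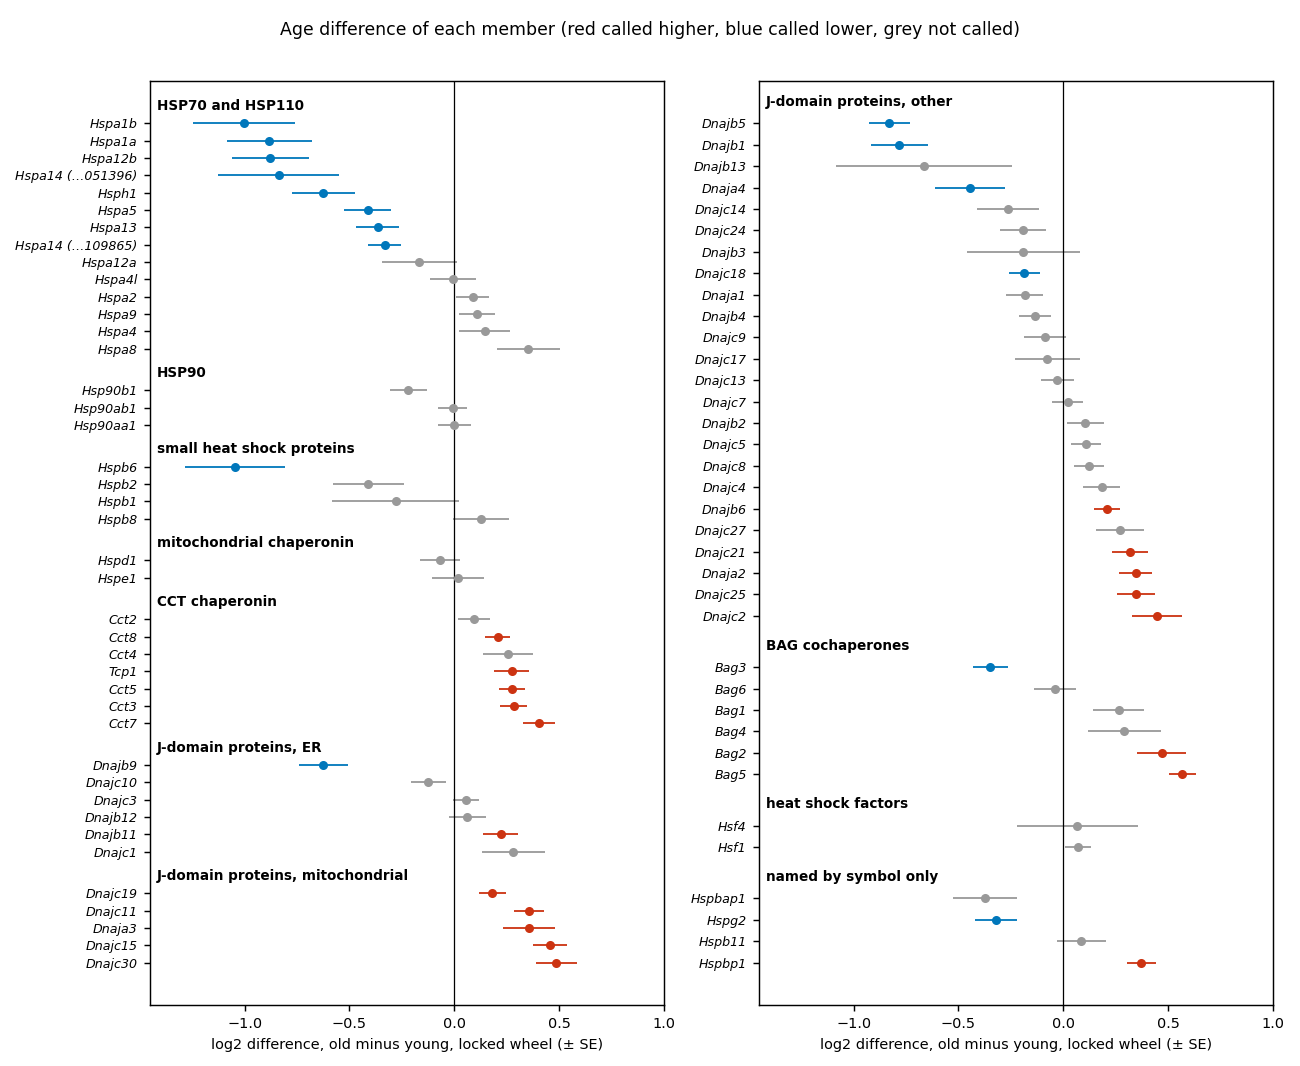
Log2 difference in RPKM between old and young MuSCs of mice with a locked wheel (old minus young, x axis) for each of the 77 members, grouped by role (y axis). Points are limma estimates from 7 old and 6 young libraries and bars are ± 1 SE; red marks members called higher, blue called lower and grey not called. All 5 mitochondrial J-domain members and 5 of 7 CCT subunits were called higher, beside 20.5% of all genes. In the HSP70 and HSP110 group 8 of 14 members were called lower, beside 17.8% of all genes. These 8 include Hspa1a and Hspa1b, whose sequences partly coincide, and both overlapping models of Hspa14.

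The inducible HSP70 genes were lower in old cells. Hspa1a was at 543 to 985 RPKM in the 6 young locked libraries (median 668) and at 240 to 624 in the 7 old locked libraries (median 342). Every old library lay below the young mean, and the ranges overlapped. The log2 difference was -0.88 ± 0.20 (SE), 1.84-fold lower (limma adjusted p = 0.00189). Hspa1b was at 743 to 1469 RPKM in young (median 1080) and 320 to 1020 in old (median 500), a 2.00-fold difference (log2 -1.0 ± 0.24, limma adjusted p = 0.00304). The highest old library, replicate 1 at 1020 RPKM, lay inside the young range.

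Dnajb1 (Hsp40), the J-domain protein that drives HSP70 during stress, was lower without overlap. The 6 young locked libraries were at 1349, 1115, 1038, 940, 947 and 1183 RPKM, and the 7 old locked libraries at 735, 696, 867, 520, 507, 459 and 750. Every old value lay below every young value. The log2 difference was -0.78 ± 0.14, 1.72-fold lower (limma adjusted p = 0.00014). Hsph1, the HSP110 exchange factor for HSP70, was at 232 to 317 RPKM in young (median 298) and 126 to 249 in old (median 204), a log2 difference of -0.62 ± 0.15 (limma adjusted p = 0.00254) with overlapping ranges. Both overlapping models of Hspa14, an HSP70 of the ribosome, were lower by limma as well. The first differed by -0.33 (limma adjusted p = 0.00223). The other differed by -0.84 (limma adjusted p = 0.0249), a call kept in 10 of 13 fits that left out 1 library and lost with the replicate block. Bag3, which links HSP70 to autophagy and is itself a heat shock gene, averaged 923 ± 90.3 RPKM (SD, n = 6) in young and 724 ± 55.8 (SD, n = 7) in old, 1.27-fold lower by limma (adjusted p = 0.00281).

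Further cytosolic J-domain genes were lower in old cells. Dnajb5, a close relative of Dnajb1, was at 10.4 to 12.7 RPKM in young and 5.24 to 8.03 in old, with no overlap (log2 -0.83 ± 0.10, limma adjusted p = 1.74e-06). Dnaja4 averaged 22.7 RPKM in young and 17.3 in old (log2 -0.44 ± 0.17, limma adjusted p = 0.0397), and its call was lost under some alternatives. Other heat shock genes did not pass the test. Hspa8 had a median of 1469 RPKM in young and 2043 in old, in the opposite direction (log2 0.35 ± 0.15, limma adjusted p = 0.0675). It was called higher when old locked replicate 1 (adjusted p = 0.0217), old locked replicate 4 (0.0109) or young locked replicate 6 (0.0438) was left out of limma's fit. Hsp90aa1 (log2 0.00), Hsp90ab1 (-0.01), the mitochondrial chaperonin pair Hspd1 (-0.07) and Hspe1 (0.02), and Hsf1 itself (0.07) had limma adjusted p from 0.391 to 0.994. Of the 13 members listed as heat shock factor targets, 5 were lower (Hspa1a, Hspa1b, Dnajb1, Hsph1 and Bag3), beside 17.8% of all genes. Hspa1a and Hspa1b among these count as 1 source of evidence. On that list 0 were higher, beside 20.5% of all genes, and its median was -0.18 beside 0.01 over all genes.

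**Figure D2:**
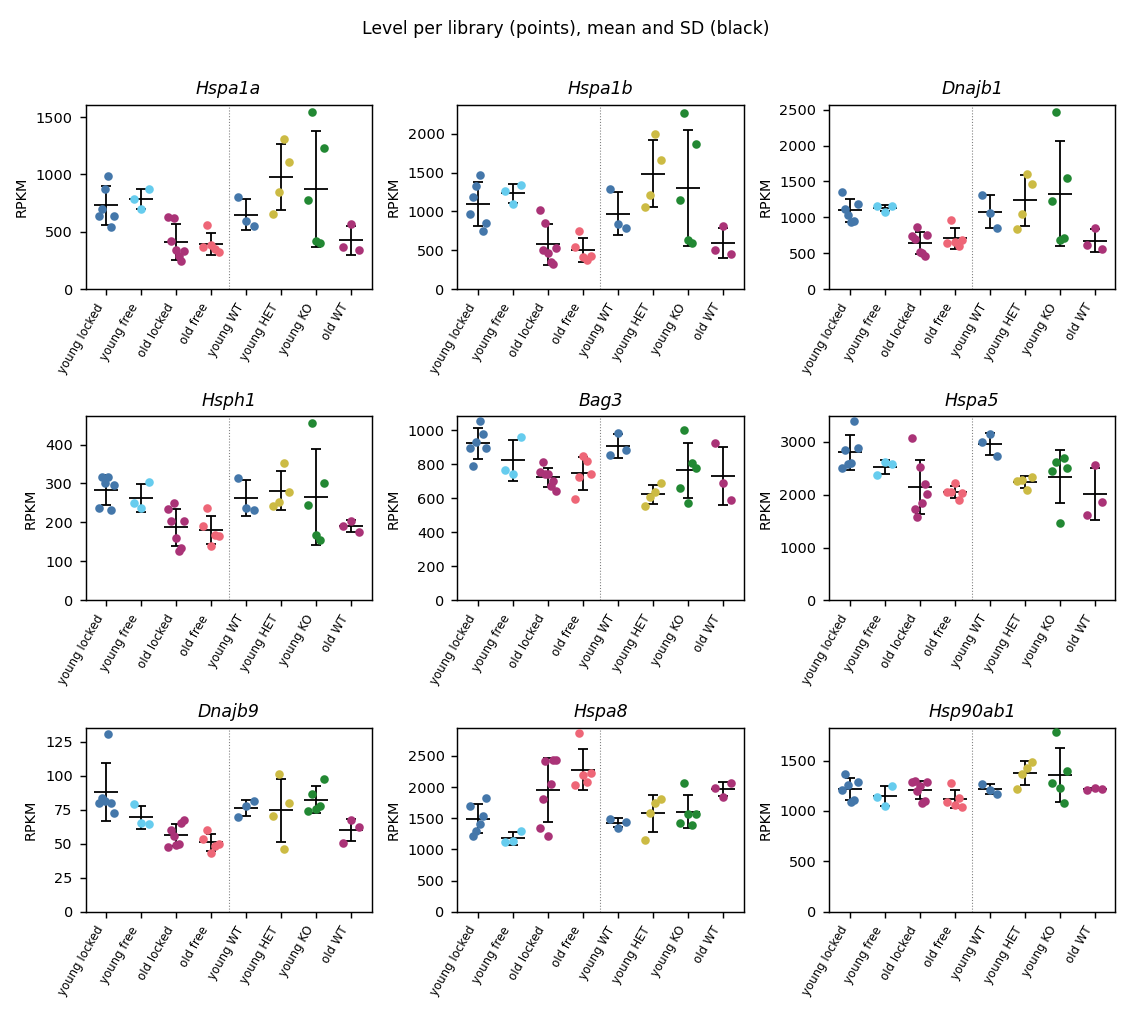
RPKM (y axis) of 9 stress and ER chaperones in each library of the 8 groups (x axis); dots are libraries and the bars are the group mean and SD. Every old locked library of Dnajb1 (459 to 867 RPKM) sits below every young locked one (940 to 1349), while Hspa8 does not follow that order; the young KO libraries of Hspa1a spread from 400 to 1540.

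Immediate early genes, which like heat shock genes are known to be induced during cell isolation, moved in the same direction in these libraries. Of 22 listed, 12 were lower in old cells, beside 17.8% of all genes, among them Egr2 (log2 -0.93) and Fosl2 (-0.39). In that list 1, Fosl1, was higher (1.04), beside 20.5% of all genes. Summed, the 22 genes were at 9567 to 10640 RPKM in young locked and 7750 to 9097 in old locked libraries. Their part in the heat shock result was not tested.

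In the ER, 2 chaperones that respond to unfolded protein were lower in old cells. Hspa5 was at 2509 to 3387 RPKM in young (median 2722) and 1585 to 3066 in old (median 2022), a log2 difference of -0.41 ± 0.11 (limma adjusted p = 0.00654). Old values lay below the young mean in 6 of 7 libraries, and the ranges overlapped. Dnajb9 (ERdj4), a BiP partner induced by the unfolded protein response, was at 72.3 to 131 RPKM in young (median 80.9) and 47.9 to 67.7 in old (median 55.5). No old value reached a young one, and the log2 difference was -0.62 ± 0.12 (limma adjusted p = 0.000315).

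The rest of the ER group did not move together. Hspa13, an HSP70-like ER protein, was lower (log2 -0.36, limma adjusted p = 0.0077), Dnajb11 (ERdj3), a secreted BiP partner, was higher (0.22, adjusted p = 0.0401, a call lost under some alternatives), and Dnajc3 (P58IPK) was not called (0.06, adjusted p = 0.508). Hsp90b1 (GRP94) just missed (log2 -0.22, limma adjusted p = 0.0532) and was called lower with relative log expression scaling (-0.23, adjusted p = 0.0371). Of the 7 ER chaperones listed, 1 was higher, beside 20.5% of all genes, and 3 were lower, beside 17.8%. Among 23 other ER folding and unfolded protein response genes, 4 were higher, including the stress sensor Ern1 (0.39 ± 0.09, limma adjusted p = 0.00235) and Creld2 (0.59 ± 0.15, adjusted p = 0.00316). In that list 3 were lower, including the stress-induced transcription factor Ddit3 (CHOP; -0.52 ± 0.11, adjusted p = 0.000658) and Herpud1 (-0.37 ± 0.12, adjusted p = 0.0165). The ER stress element was thus present in members called lower (Hspa5) and in members not called (Hsp90b1, Dnajc3).

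The CCT chaperonin, the cytosolic ring that folds actin and tubulin, was higher in old cells. Of its 7 measured subunits 5 were called higher, beside 20.5% of all genes. All 7 differences were positive, and the median was 0.27. Cct7 was at 72.4, 62.3, 56.7, 50.7, 59.2 and 60.7 RPKM in the young locked libraries and at 64.9 to 88.7 (median 80.0) in the old ones. The groups met only where young replicate 1 exceeded the lowest old library, and the log2 difference was 0.41 ± 0.08 (limma adjusted p = 0.000249).

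Cct5 was at 167 to 208 RPKM in young (median 175) and 197 to 231 in old (median 216), with young replicate 4 the only young library inside the old range (log2 0.28 ± 0.06, limma adjusted p = 0.0012). Cct3 was at 49.6 to 60.4 RPKM in young and 61.0 to 72.1 in old, without overlap (0.28 ± 0.06, adjusted p = 0.00145). Cct8 (0.21 ± 0.06, adjusted p = 0.00943) and Tcp1 (0.27 ± 0.08, adjusted p = 0.0134) were also called. Cct2 was not (0.10, adjusted p = 0.336). Neither was Cct4 (0.26, adjusted p = 0.0969), which limma called when old locked replicate 4 (adjusted p = 0.0306) or young locked replicate 4 (0.0137) was left out. The summed level of the 7 subunits was 565 to 699 RPKM in young locked and 696 to 781 in old locked libraries.

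The proteins that hand clients to CCT moved less evenly. Of 14 prefoldin subunits and CCT or tubulin cofactors, 4 were higher in old cells, beside 20.5% of all genes, and 2 were lower, beside 17.8%. Those higher were led by the prefoldin subunits Pfdn6 (0.49 ± 0.06, limma adjusted p = 5e-06) and Pfdn2 (0.41 ± 0.06, adjusted p = 4.7e-05). The tubulin cofactor Tbcd (-0.54 ± 0.15, limma adjusted p = 0.00813) and the CCT regulator Pdcl (-0.40 ± 0.12, adjusted p = 0.0142) were lower.

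All 5 mitochondrial J-domain members were called higher in old cells, beside 20.5% of all genes, with a median of 0.36. Dnajc15, a protein of the inner-membrane import motor, was at 8.64 to 10.7 RPKM in young and 12.0 to 15.8 in old (0.46 ± 0.08, limma adjusted p = 0.000201). Dnajc30 was at 5.82 to 7.76 RPKM in young and 8.08 to 11.1 in old (0.49 ± 0.10, adjusted p = 0.000524). Dnajc11, a partner of the inner-membrane organising system, was at 3.79 to 4.31 in young and 4.67 to 5.91 in old (0.36, adjusted p = 0.000468). In these 3 genes every old library lay above every young one.

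Dnaja3 (Tid1, the mitochondrial matrix HSP40; 0.36, limma adjusted p = 0.0258) and Dnajc19, another import motor subunit (0.18, adjusted p = 0.0318), were closer to the threshold and lost their calls under some alternatives. Hspa9 (mortalin), the mitochondrial HSP70 itself, was not called (0.11, adjusted p = 0.341). Of 14 other mitochondrial folding and protease genes 5 were higher, beside 20.5% of all genes, and 0 lower, beside 17.8%. The median of that list was 0.05 beside 0.01 over all genes. The 5 include the import motor subunit Pam16 (0.51 ± 0.08, limma adjusted p = 3.7e-05) and Grpel2, an exchange factor for mortalin (0.72 ± 0.15, adjusted p = 0.000589).

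**Figure D3:**
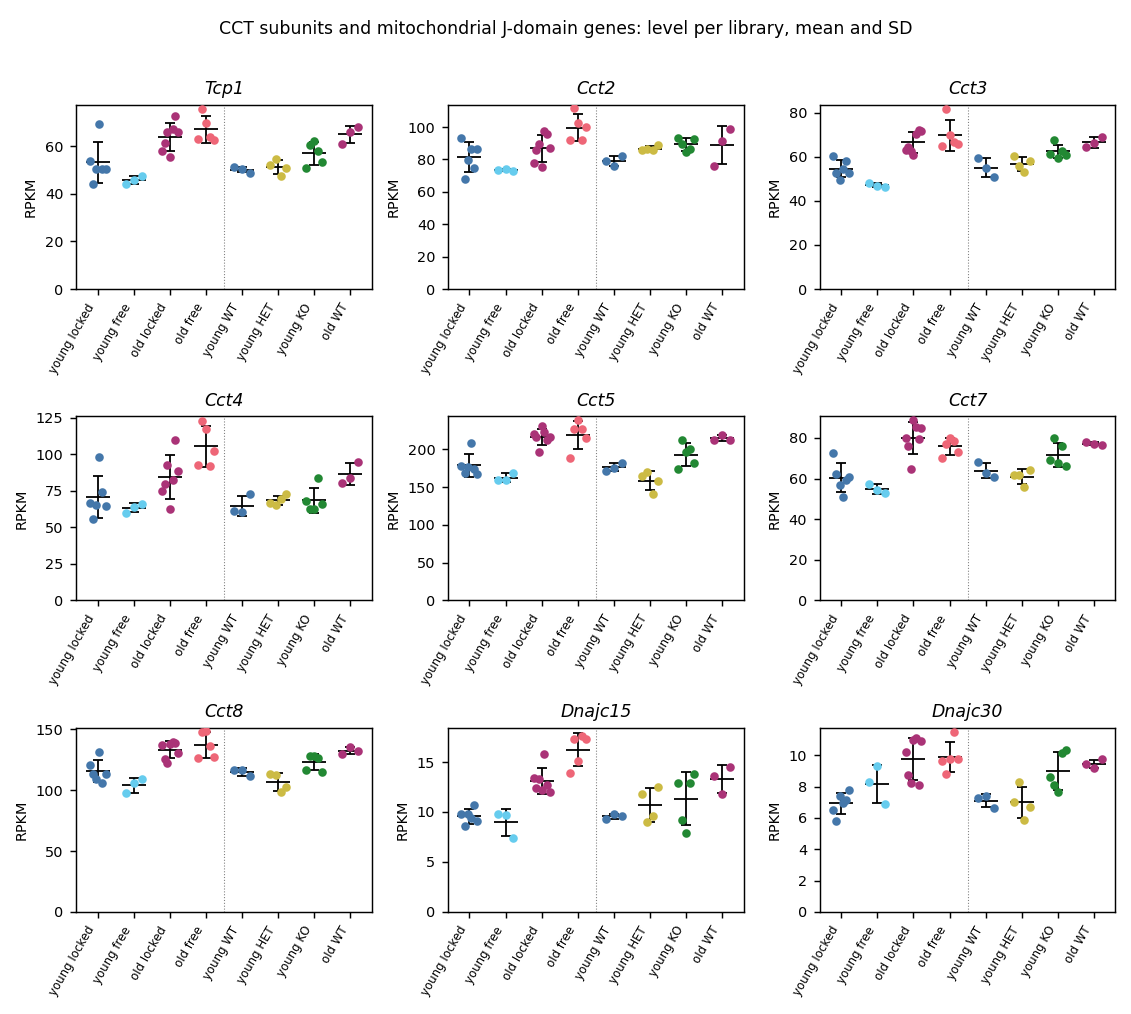
RPKM (y axis) of the 7 CCT subunits and of the mitochondrial J-domain genes Dnajc15 and Dnajc30 in each library of the 8 groups (x axis); dots are libraries and the bars are the group mean and SD. Old locked libraries lie above all young locked ones for Cct3, Dnajc15 and Dnajc30, and old free libraries of Dnajc15 lie at 13.9 to 17.6 RPKM.

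Among the remaining members, Bag5 had the lowest p. This BAG protein, an exchange factor for HSP70 (chr12:111709488-111713257, minus strand), was at 28.6 to 33.3 RPKM in the young locked libraries (median 30.7) and at 41.1 to 50.7 in the old ones (median 44.8). The groups did not overlap, and the log2 difference was 0.57 ± 0.06, 1.48-fold (limma adjusted p = 1.03e-06). Bag2, an inhibitor of client ubiquitination, was also higher (3.41 RPKM in young, 4.71 in old; 0.47 ± 0.12, adjusted p = 0.00299), in contrast to Bag3. Hspbp1, another HSP70 exchange factor, was at 30.4 to 34.8 RPKM in young and 35.6 to 47.2 in old (0.37 ± 0.07, limma adjusted p = 0.000246). Other J-domain genes higher with limma adjusted p under 0.01 included Dnaja2, a cytosolic HSP70 partner (0.35 ± 0.08), Dnajc2, which works at the ribosome (0.45 ± 0.12), and Dnajc21, a factor of ribosome maturation (0.32).

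A pair of low-abundance members were also clearly lower in old cells. Hspb6 (Hsp20), a small heat shock protein of muscle, averaged 6.80 ± 1.59 RPKM (SD, n = 6) in young and 3.40 ± 1.20 (SD, n = 7) in old (log2 -1.05 ± 0.24, limma adjusted p = 0.00174). Summed myofibre markers, 10 genes, were at 136 to 716 RPKM in the same young libraries and 56.1 to 198 in the old, and their part in this value was not tested. Hspa12b, a distant HSP70 relative described in endothelial cells, averaged 2.95 RPKM in young and 1.66 in old (-0.88 ± 0.19, adjusted p = 0.000809), beside summed endothelial markers of 106 to 162 RPKM in young and 121 to 184 in old. Of these 10 markers 2 were higher in old cells, Pecam1 (0.56, limma adjusted p = 0.00201) and Cldn5 (0.68, adjusted p = 0.00851), and 0 were lower, and their part in this value was not tested. Hspb1 (Hsp27) was not called (-0.28, adjusted p = 0.50): young replicate 1, at 165 RPKM, lay far below the other young libraries (473 to 560). Fibro-adipogenic markers summed to 244 to 296 RPKM in young and 372 to 436 in old locked libraries. In that list 4 of 9 genes were higher in old cells (Dpt, Dcn, Lum and Ly6a). Another 2 were lower, Col15a1 (-0.57) and Clec3b (-1.20). Over all genes 20.5% were higher and 17.8% lower. Of 13 satellite cell markers 3 were higher and 5 lower in old cells, including Pax7 (-0.59) and Itga7 (-0.69), with sums of 3712 to 4510 RPKM in young and 4004 to 4912 in old. The part of either list in the age results was not tested.

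HSP90 cochaperones followed no single direction. Of 18 measured, 4 were higher in old cells, beside 20.5% of all genes, and 1 was lower, beside 17.8%. Those higher included the cyclophilin Ppid (0.28 ± 0.06, limma adjusted p = 0.00124) and the kinase-specific adaptor Cdc37 (0.23 ± 0.06, adjusted p = 0.00685). Cacybp was lower (-0.28 ± 0.09, adjusted p = 0.0149).

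The promoter letters were set beside these calls as a description. The 2-unit heat shock element was in 5 of the 14 lower members with a window, 2 of the 16 higher and 8 of the 32 not called. The 3-unit form was in 0 of the 14 lower, 1 of the 16 higher and 2 of the 32 not called. The higher member was Dnajb6 (log2 0.21, limma adjusted p = 0.00952). The CCAAT box was in 10 of 14 lower, 6 of 16 higher and 8 of 32 not called. A member counts here if any of its windows matched. By window, the 2-unit form was in 30% for lower, 15.8% for higher and 19% for not called, beside 12.8% of all windows. The 3-unit form by window was in 0%, 10.5% and 4.76%, beside 0.47% of all. The CCAAT box by window was in 65%, 31.6% and 23.8%, beside 33.8% of all. Lower members with a CCAAT box include Hspa1a, Hspa1b and both overlapping models of Hspa14, which are not all separate loci. Windows are not all separate genes either: Dnajb5 supplies 3 windows with a CCAAT box and Hsph1 supplies 2. Cct5, which was higher, holds a 2-unit match (chr15:31601862-31601891, minus strand), so the letters were not limited to genes that were lower.
Cct5: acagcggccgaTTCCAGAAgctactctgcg

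Age was tested again in the WT mice of the Ccnd1 cohort, 3 old against 3 young. Here 9 members were higher, beside 8.03% of all genes, and 1 was lower, beside 7.76% (15.8% in either direction). Groups did not overlap in 31 members (40.3%), beside 37% of all genes. The 9 were Bag5, Tcp1, Cct3, Cct4, Dnaja2, Dnaja3, Dnajc2, Dnajc11 and Dnajc30. The 1 lower was the model of Hspa14 that differed by -0.33 in the wheel cohort (-0.39, limma adjusted p = 0.0354). Because the deposited values of both cohorts share the authors' adjustment, these are not separate support for the wheel cohort's values.

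Tcp1 was at 51.3, 50.3 and 48.8 RPKM in young WT and 60.9, 65.8 and 67.8 in old WT (0.37 ± 0.09, limma adjusted p = 0.0174). Cct4 was at 61.5, 60.4 and 72.6 in young and 80.7, 83.5 and 95 in old (0.42 ± 0.12, adjusted p = 0.0286). Bag5 was at 33.3, 31.4 and 27.1 in young and 51.1, 47.1 and 40.1 in old (0.59 ± 0.15, adjusted p = 0.0155). In each of these genes all old libraries were above all young ones. For the inducible genes the spread was wider. Hspa1a was at 801, 592 and 547 RPKM in young WT and 369, 571 and 340 in old WT, and Dnajb1 at 1313, 1062 and 852 against 608, 852 and 551. Neither was called (Hspa1a -0.62 ± 0.45, limma adjusted p = 0.369; Dnajb1 -0.69 ± 0.41, 0.266). Hspa5 was not called either (-0.57 ± 0.22, adjusted p = 0.0828), but was without old WT replicate 2 (-0.76, adjusted p = 0.0445). None of the 10 calls was kept in every fit that left out 1 library: the number called ranged from 1, without old WT replicate 3, to 6.

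Few members were called with free wheel running, and few of all genes. In old mice, 5 free against 7 locked, 2 members were higher, beside 4.09% of all genes, and 2 were lower, beside 3.3% (7.39% in either direction). The 4 members called, 5.19%, were near that share. The groups did not overlap in 1 member, beside 3.94% of all genes. Hspa2, an HSP70 best known from the testis, was at 28.9, 27.3, 26.7, 30.6, 26.1, 23.4 and 29.7 RPKM with a locked wheel and 20.1, 22.9, 21.5, 22.0 and 20.1 with a free one. All 5 running mice lay below all 7 locked ones, a log2 difference of -0.37 ± 0.08 (limma adjusted p = 0.0135), and this call was kept under every alternative run. Dnajb2, a J-domain protein that passes clients to the proteasome, averaged 29.1 RPKM locked and 22.5 free (-0.36 ± 0.09, adjusted p = 0.0226), a call lost without old free replicate 3 and with the replicate block.

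Dnajc15, higher with age, was also higher with running: 13.4, 12.4, 13.3, 12.2, 15.8, 12.7 and 12.0 RPKM locked against 13.9, 17.3, 15.1, 17.6 and 17.3 free (0.31 ± 0.09, limma adjusted p = 0.0363). Running and locked mice overlapped at locked replicate 5. This call was kept in 4 of the 12 fits that left out 1 library and was lost with the replicate block. Dnajb12, an ER-membrane J-domain protein, averaged 7.16 locked and 8.87 free (0.31 ± 0.10, adjusted p = 0.0498), a call lost in 12 of 17 alternatives. The age and running comparisons share the old locked libraries. Endothelial markers summed to 176 to 255 RPKM in old free and 121 to 184 in old locked libraries, and 3 of 10 were called higher (Cldn5, Egfl7 and Kdr), beside 4.09% of all genes. Their part in the running results was not tested.

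No member that was called lower with age was called with running in old mice, which does not show that their levels were unchanged. Hspa1a was at 319 to 562 RPKM in old free libraries (log2 0.01, limma adjusted p = 0.993), Hspa1b at 371 to 748 (-0.13, adjusted p = 0.805) and Dnajb1 at 602 to 961 (0.14, adjusted p = 0.584). CCT subunits were not called; Cct4 came nearest (0.33, adjusted p = 0.111) and was called without old locked replicate 6 (0.40, adjusted p = 0.0462). In the other lists the HSP90 and myosin chaperone Unc45a was lower (-0.48 ± 0.08, limma adjusted p = 0.00273), Pfdn2 was lower (-0.25 ± 0.07, adjusted p = 0.0299) and the ER degradation factor Sel1l was higher (0.26 ± 0.07, adjusted p = 0.0374). Of the 22 immediate early genes, 2 were lower, Fosl2 (-0.34) and Ier3 (-0.37), beside 3.3% of all genes.

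In young mice, 3 free against 6 locked, 1 member was higher, beside 0.406% of all genes, and 1 was lower, beside 0.714% (1.12% in either direction). The groups did not overlap in 10 members (13%), beside 9.55% of all genes. Dnajc21 was at 10.6, 9.05, 8.28, 8.78, 8.53 and 9.68 RPKM locked and 6.01, 6.62 and 6.12 free, without overlap (-0.55 ± 0.11, 1.46-fold lower, limma adjusted p = 0.0184). Hspb8, a small heat shock protein that works with Bag3, was at 14, 9.39, 12.6, 10.7, 13.9 and 13.1 locked and 23.6, 24.6 and 14 free (0.72 ± 0.17, 1.65-fold higher, adjusted p = 0.0378). Young free replicate 3 lay within the locked range. Fits without young free replicate 1 or 2 called 0 members, as did a fit on the young libraries alone.

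The running effects of old and young mice were then compared directly, and limma called 0 members, beside 0.00882% of all genes called. At an unadjusted p under 0.05 there were 13 of the 77 members, beside 960 of all 11337 genes. Hspa8 differed by 0.59 ± 0.25 (old effect minus young effect, limma adjusted p = 0.553) and Dnajc21 by 0.54 (adjusted p = 0.382). All 7 CCT subunits had positive differences, with a median of 0.27 beside 0.01 over all genes, and none passed the test.

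**Figure D4:**
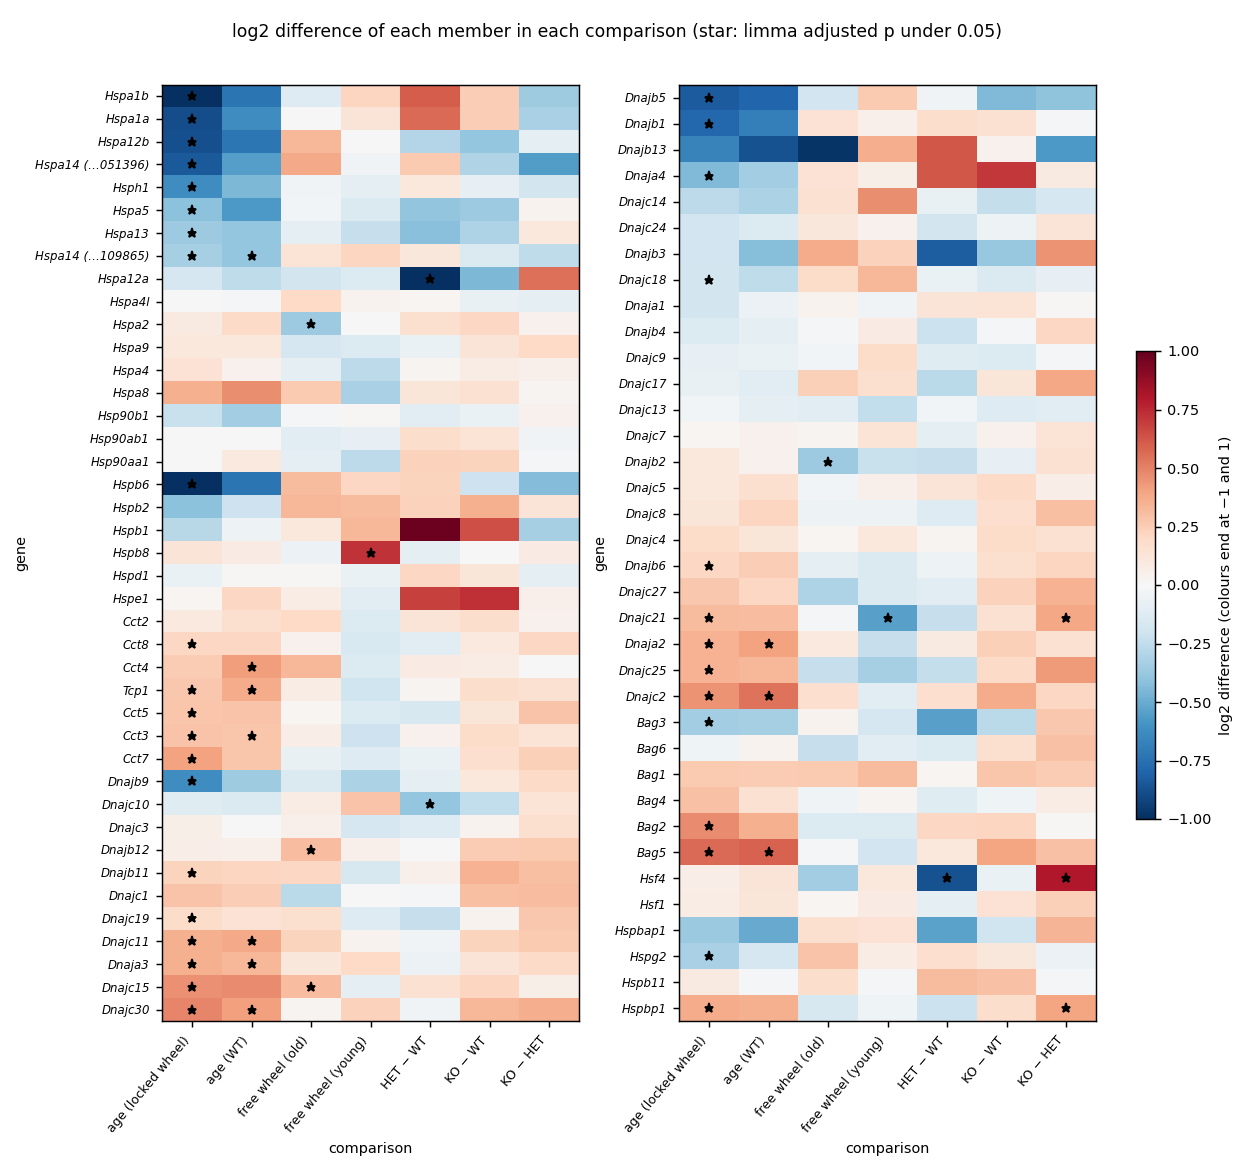
Heat map of log2 differences in RPKM for the members (y axis, by role) in every comparison except the difference of running effects (x axis); red is higher and blue lower in the first-named group, colours end at ±1, and a star marks limma adjusted p under 0.05. Stars are most frequent in the age column of the locked-wheel mice (35 members, 45.5%, beside 38.3% of all genes). There are 10 in the WT age column (13% beside 15.8%) and 4 in the old wheel column (5.19% beside 7.39%). The KO against WT column has 0, beside 6.99% of all genes.

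Loss of Ccnd1, the gene of cyclin D1, was examined in young mice. Ccnd1 was lower in KO than in WT (log2 -2.12 ± 0.15), which checks the labels. Between 5 KO and 3 WT libraries limma called 0 members, beside 5.05% of all genes called higher and 1.94% lower (6.99% in either direction). At an unadjusted p under 0.05 there were 17 of the 77 members, beside 2910 of all 11337 genes, a smaller share among the members. The groups did not overlap in 12 members (15.6%), beside 17.8% of all genes. The median over members was 0.13 beside 0.02 over all genes.

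The inducible genes spread widely among KO mice. Hspa1a was at 774, 1540, 417, 400 and 1229 RPKM in KO and 801, 592 and 547 in WT (0.24 ± 0.41, limma adjusted p = 0.748). KO libraries lay both above and below all WT libraries. Dnajb1 was at 1225, 2467, 681, 716 and 1552 in KO and 1313, 1062 and 852 in WT (0.16, adjusted p = 0.823), with the same KO libraries at the top. Hspe1, the lid of the mitochondrial chaperonin, was at 237, 360, 166, 151 and 395 RPKM in KO and 167, 110 and 172 in WT (0.73 ± 0.30, adjusted p = 0.146).

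The member nearest the threshold, named after its values were seen, was Dnajc10 (ERdj5), an ER disulfide reductase. It was at 11.9, 12.4, 12.8, 13.1 and 12.0 RPKM in KO and 14.4, 15.3 and 14.6 in WT, without overlap (-0.25 ± 0.07, limma adjusted p = 0.050). It was called with relative log expression scaling (adjusted p = 0.0365) and with a pseudocount of 1 (0.0492). Bag5 differed by 0.40 (adjusted p = 0.0752). In the lists outside the members, the prefoldin subunit Pfdn4 was higher in KO (0.63 ± 0.13, limma adjusted p = 0.015), the tubulin cofactor Tbcc was higher (0.58 ± 0.14, adjusted p = 0.0306) and Tbcd was lower (-0.44 ± 0.12, adjusted p = 0.0422). The HSP90 activator Ahsa1 (0.33 ± 0.09, adjusted p = 0.0498), the mitochondrial protease Clpp (0.31 ± 0.09, 0.0469) and Pam16 (0.42 ± 0.12, 0.0461) were also higher.

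With 1 floxed allele, 4 HET against 3 WT, 0 members were higher, beside 1.98% of all genes, and 3 were lower, beside 3.4% (5.39% in either direction). The groups did not overlap in 14 members (18.2%), beside 21.2% of all genes. Dnajc10 was at 12.0, 10.4, 11.8 and 11 RPKM in HET, all below WT (-0.39 ± 0.08, limma adjusted p = 0.0136). Hsf4, a heat shock factor best known from the lens, was at 0.553, 0.623, 0.432 and 0.514 in HET and 0.895, 0.954 and 1.04 in WT (-0.87 ± 0.22, adjusted p = 0.0366). Hspa12a averaged 3.43 RPKM in HET and 7.41 in WT (-0.99 ± 0.27, adjusted p = 0.0463). In all 3 genes no HET library reached the WT range, at levels under 1 RPKM for Hsf4. The calls differed in stability when 1 library was left out. The call of Dnajc10 was kept in 6 of 7 such fits, that of Hspa12a in 1 and that of Hsf4 in 0.

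Bag3 also had no overlap, at 557, 607, 638 and 689 RPKM in HET and 856, 985 and 881 in WT, but was not called (-0.54, limma adjusted p = 0.0919). Hspb1 lay above WT in every HET library, at 504, 850, 808 and 954 RPKM against 494, 361 and 319 (0.98 ± 0.36, adjusted p = 0.119). Keratinocyte markers, 7 of 11 listed being in the table, summed to 78.9 to 195 RPKM in HET and 3.02 to 18.1 in every other group, and their part in the HET values was not tested. The 3 HET calls became 0 in a fit of these groups alone. KO, HET and the age comparison of this cohort share the young WT libraries.

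Between KO and HET, 3 members were higher in KO, beside 5.15% of all genes, and 0 were lower, beside 0.891% (6.04% in either direction). The groups did not overlap in 12 members (15.6%), beside 10.1% of all genes. Dnajc21 was at 8.29, 8.05, 6.38 and 8.81 RPKM in HET and 10.8, 10.4, 9.48, 10.1 and 10.3 in KO (0.39 ± 0.09, limma adjusted p = 0.0235). Hsf4 was at 0.634 to 1.04 in KO, above every HET library (0.80 ± 0.19, adjusted p = 0.0248). Hspbp1 was higher by 0.39 ± 0.10 (adjusted p = 0.0321), with KO replicate 3 inside the HET range. With relative log expression scaling the count was 0; the median difference of all genes was 0.08 as deposited and -0.01 with that scaling. Without HET replicate 3 the count was 0, and without HET replicate 2 it was 6.

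Levels of the inducible chaperones differed from mouse to mouse within a group, most widely among the KO mice. In KO replicate 2, Hspa1a lay 1.03 above its group mean on the log2 scale, Dnajb1 1.06 and Hsph1 0.90, while Hspa5 lay 0.19 and Cct5 0.14 above. In KO replicate 3, Hspa1a lay at -0.85 and Hspa5 at -0.64. In KO replicate 4, Hspa1a lay at -0.92 and Hspa5 at 0.23, so the ER gene did not follow. Over the 13 heat shock factor targets, the median deviation of a library ran from -0.39 (KO replicate 3) to 0.42 (KO replicate 2). Over the 7 CCT subunits the median stayed between -0.12 and 0.19. In the young locked group Hspa1a and Dnajb1 did not follow each other: in replicate 4 Hspa1a lay at 0.47 and Dnajb1 at -0.21, in replicate 1 at -0.16 and 0.31, and their signs were opposite in every replicate but replicate 5. These deviations are a description of the libraries, without a test.

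**Figure D5:**
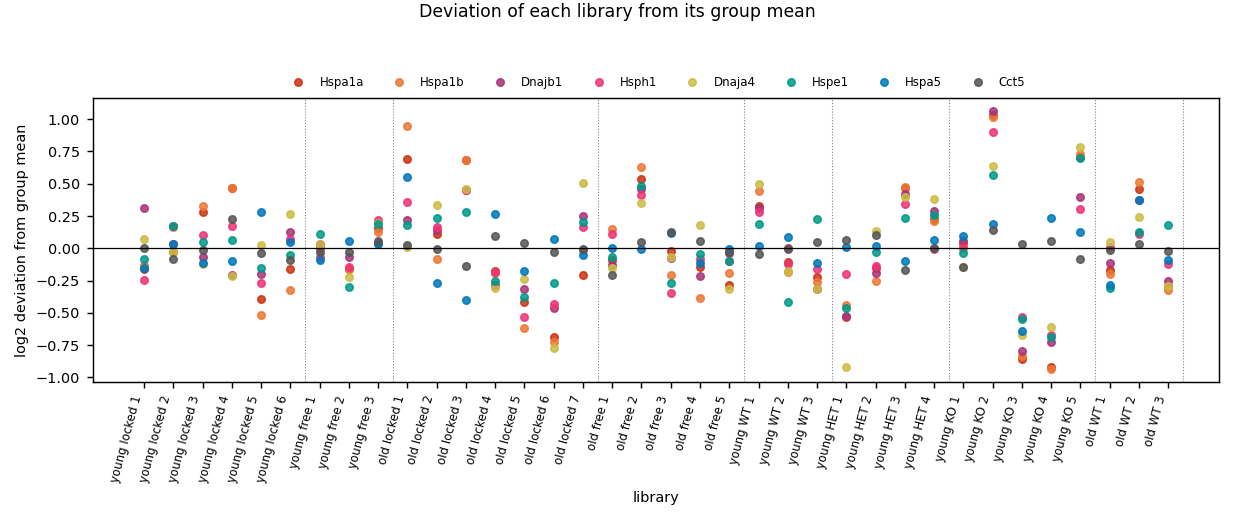
Deviation from the group mean in log2 RPKM (y axis) of 8 chaperones in each of the 36 libraries (x axis, by group). Hspa1a runs from -0.92 to 1.03 among the young KO libraries, where Hspa1b, Dnajb1 and Hsph1 have the same sign as Hspa1a in each library. In young locked replicate 4, Hspa1a (0.47) and Dnajb1 (-0.21) have opposite signs.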

How the data were processed

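RNA from 1 mouse per library was primed with oligo(dT), amplified and sequenced as 101-base read pairs, per the labels' protocols. Trim Galore, STAR, Subread and featureCounts with mm10 are named in the submitters' processing notes, with versions not given in the sources used here. The authors deposited 1 table of RPKM for 11337 genes and 36 libraries, with no value at 0. A further deposited column, a correlation score with Ccnd1, was not used. Read depth is not stated per library; RPKM summed to 273837 to 350969 per library, so no counting interval is given. The missing directions show that the deposited RPKM had been adjusted across libraries, by a method not given in the sources used here. Limma took no account of this adjustment, so its SEs and p-values may be too small, which was not tested. Within each cohort the residual directions were complete (17 of 17 in the wheel cohort, 11 of 11 in the Ccnd1 cohort).

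Log2 RPKM, without a pseudocount, was fitted with limma 3.58.1 in R 4.3.3 (trend and robust variance, statmod 1.5.0), with 1 mean per group within each cohort, and p-values were adjusted over all 11337 genes in each of 8 comparisons. Members and lists were chosen with earlier results of these data known. Named were up to 8 called members per direction and comparison by lowest p, members chosen by role, and up to 2 called genes per direction of each other list; further called members (such as Dnaja2, Dnaja3, Dnaja4, Dnajb11, Dnajc2, Dnajc19, Dnajc21, Hspa13 and Bag2 in the age comparison) complete their families and were named after their values were seen. Alternatives were relative log expression (RLE) scaling, a pseudocount of 1, a mean of at least 1 RPKM, each library left out, a replicate block, and only the groups compared. The fit was tested on simulated data. Same-numbered mice did not deviate together in every pair of any comparison, so the numbers were not treated as pairs. Promoter letters came from RefSeq (GRCm38.p6) and gene coordinates from GENCODE M21 (mm10). Tables were handled with Python 3.11.15, numpy 2.4.6 and pandas 2.3.3, and figures drawn with matplotlib 3.10.9.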

Additional observations from a re-analysis of the deposited data

Results flagged for a closer look

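Single libraries stood apart from their group, by Dixon's test at the 95% level, in 16 of the 130 groups of values tested, where chance gives about 1 in 20. Old free replicate 2 was high for Hspa1a (562 RPKM, others 319 to 383.8), Hspa8 (2861, others 2040 to 2220), Dnajb1 (961, others 602.5 to 680.3) and Hspe1 (234.3, others 139.4 to 162.5). Old free replicate 3 was high for Hspa9 (126.9, others 107.8 to 112.6). Young KO replicate 3 was low for both ER chaperones Hspa5 (1467, others 2440 to 2694) and Hsp90b1 (198.8, others 282.2 to 310.4). Young KO replicate 2 was high for Hspa8 (2058, others 1391 to 1573), KO replicate 4 for Cct4 (83.59, others 62.26 to 68.29) and KO replicate 5 for Hspb8 (20.93, others 9.958 to 13.09). Young HET replicate 1 was low for Hspb8 (8.437, others 13.05 to 13.4). Young locked replicate 4 was high for Hspa9 (148.4, others 111.4 to 116.2), Dnajb9 (130.9, others 72.3 to 83.66) and Cct5 (208.1, others 167.3 to 178.1). Young locked replicate 1 was low for Hspb1 (164.9, others 473.1 to 559.6), and young locked replicate 5 was low for Hspd1 (231.7, others 295.5 to 317.3).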

How the results depend on the processing

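In the locked-wheel age comparison 35 members were called as deposited, 37 with RLE scaling, 35 with a pseudocount of 1, 35 with the filter on mean RPKM, 32 with the replicate block and 32 with only the groups compared; 29 calls were kept under every alternative. Leaving out 1 library gave 31 to 38 calls in that comparison, 1 to 6 for age in WT (1 without old WT replicate 3), 1 to 4 for running in old mice (1 without old free replicate 3), 0 to 3 for running in young mice, 0 to 0 for the difference of running effects, 0 to 1 for KO against WT, 1 to 2 for HET against WT and 0 to 6 for KO against HET. The replicate block gave 2 calls for running in old mice, 0 for running in young mice, 0 for HET against WT, 1 for KO against HET and 5 for age in WT. Only the groups compared gave 0 calls for running in young mice, 0 for HET against WT and 0 for KO against HET. RLE scaling gave 1 call for KO against WT and 0 for KO against HET, and a pseudocount of 1 gave 1 for KO against WT. The causes were not tested, beyond the fewer libraries in some fits. No member's called direction reversed. A fit of the groups compared alone was not run for the difference of running effects. The single KO call without KO replicate 2 was Dnajc2 (0.47, limma adjusted p = 0.0446), and without KO replicate 4 it was Hspb2 (0.46, adjusted p = 0.0372). Depth per library is unknown, which limits what can be said of members near 1 RPKM.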
